A study of Mus musculus with 7 samples.

Results

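A set of 9 genes for transcription factors of blood stem cells was followed in EML cells that had been sorted on the surface protein CD34. The genes are Hoxa5, Hoxa7, Hoxa9, Hoxa10, Meis1, Hlf, Hhex, Sox4 and Zfp521. They were chosen by name, and all 9 were found among the 20464 rows of the deposited table. RNA was sequenced from 3 CD34-positive and 4 CD34-negative libraries. EML is a mouse progenitor line, immortalised by a dominant-negative retinoic acid receptor, that can give rise to erythroid, myeloid and lymphoid cells. Apoptotic cells had been removed with Annexin V before the sort, per the labels' protocols, and no treatment is labelled for either group. The labels also give the strain C57BL/6, a bone marrow tissue and a postnatal age to all 7 libraries, while the source names the cell line. A genotype label reads CD43 in the negative libraries, where their titles read CD34. Libraries are named here by the replicate number in their titles. Their descriptions carry other numbers, which are 3 for replicate 1, 2 for replicate 2, and 4 for replicate 3 of both groups and for CD34-negative replicate 4. An added letter makes the number 3a for CD34-positive replicate 1 and 4a for CD34-negative replicate 4. Whether CD34-negative replicates 3 and 4 come from 1 sample is unknown, and they were counted as 2 libraries.

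Hox proteins bind DNA as homeodomain factors, often in dimers with Pbx and Meis proteins, which belong to the TALE class of homeodomain factors. In mouse blood, Hoxa9 and Meis1 sustain stem and early progenitor cells and are silenced as these cells mature, and together they can drive leukaemia. Hlf is a leucine zipper factor that marks stem cells. Hhex is a homeodomain factor needed by early blood and lymphoid progenitors, Sox4 is an HMG-box factor of stem cells and early B lymphoid cells, and Zfp521 is a zinc finger cofactor of immature progenitors.

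The members fell into a part listed at or near 0 and a part that was expressed. Hoxa5, Hoxa9 and Hoxa10 were listed at 0 FPKM (mapped fragments relative to transcript length and library size) in all 7 libraries. Hoxa7 was listed at 0.0737 FPKM in CD34-positive replicate 1 and at 0 in the other 6. Meis1, Hlf, Hhex, Sox4 and Zfp521 were above 0 in every library, and each had a higher value in CD34-positive cells within each of the 3 replicates. Among all genes tested, 29% were likewise higher within each replicate. Meis1 and Hlf had the largest ratios between CD34 states within replicates 2 and 3, between 14.6 and 27.2. The CD34-negative libraries in these ratios held only 0.179 to 0.616 FPKM, below the minimum of 1 FPKM used for the tests. No member passed in limma, where 0% of the 9259 genes tested passed in either direction.

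To show which promoters stand before members listed at 0 and before an expressed one, the bases upstream of 3 members are given from RefSeq (GRCm38.p6), 5′ to 3′ on the gene's strand and ending just before the start site. The build behind the deposited values is open, so these positions belong to RefSeq's annotation alone. The first is of Hlf, the expressed member with the highest ratio in replicate 2, at chr11:90390918-90391167 on the minus strand. The others are of genes listed at 0, Hoxa5, at chr6:52204588-52204837, and Hoxa9, at chr6:52227371-52227620, both on the minus strand. Capitals mark CG dinucleotides.
Hlf: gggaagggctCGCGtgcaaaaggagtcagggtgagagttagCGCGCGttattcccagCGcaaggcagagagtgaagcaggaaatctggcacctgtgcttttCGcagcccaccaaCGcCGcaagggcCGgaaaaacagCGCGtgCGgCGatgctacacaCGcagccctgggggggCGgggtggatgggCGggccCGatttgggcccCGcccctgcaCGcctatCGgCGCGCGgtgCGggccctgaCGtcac
Hoxa5: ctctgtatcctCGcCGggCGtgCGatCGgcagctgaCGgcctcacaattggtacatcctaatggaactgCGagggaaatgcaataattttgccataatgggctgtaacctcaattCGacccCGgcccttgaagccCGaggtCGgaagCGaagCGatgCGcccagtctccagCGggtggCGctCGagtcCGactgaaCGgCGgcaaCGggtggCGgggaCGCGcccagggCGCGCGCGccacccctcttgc
Hoxa9: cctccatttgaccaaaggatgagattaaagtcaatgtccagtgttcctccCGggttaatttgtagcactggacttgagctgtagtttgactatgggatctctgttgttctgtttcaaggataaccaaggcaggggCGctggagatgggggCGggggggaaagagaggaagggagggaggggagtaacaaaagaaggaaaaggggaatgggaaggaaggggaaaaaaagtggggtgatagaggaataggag
The 250 bases before Hlf held 26 CG dinucleotides, those before Hoxa5 held 28 and those before Hoxa9 held 3, where the median of 32851 such windows was 6. A high CG content thus stood before an expressed member and one listed at 0 alike. Windows of 8 of the 9 members, all but Zfp521, were examined, and those not shown held between 7 and 32. Hhex, at 32, had the most. The Meis1 window and a second Hoxa10 window lay inside the gene's RefSeq bounds. Annotated exons overlapped the windows of Hoxa7, Meis1, Sox4 and Hhex, so these hold transcribed sequence too. None of the windows held, on either strand, AGATAA, known from erythroid GATA factors, TGACAG, known from Meis and Tgif proteins, TGATTNAT, known from Hox and Pbx dimers, or TTANGTAA, known from leucine zipper factors of the Hlf kind. These letters were found in 9.99%, 15.9%, 2.82% and 2.06% of all windows, in that order.

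The libraries stood apart by their description number. Genes for ribosomal proteins took up 2.24% to 4.09% of the FPKM total in the 3 libraries numbered 4, against 27.7% to 37.1% in the 4 numbered 2 or 3. The number of sequenced fragments is unknown, and 8606 to 9117 genes reached 1 FPKM in each library. Cd34, the gene of the sorted marker, stood at 147, 256 and 153 FPKM in CD34-positive replicates 1 to 3, against 91.8, 19.3, 2.67 and 6.02 FPKM in the CD34-negative group in its order of replicates. The groups did not overlap, as in 2.67% of all genes tested in this direction. Still, CD34-negative replicate 1 held more Cd34 than the 3 other CD34-negative libraries together. Of the progenitor markers Kit, Cd34, Ly6a, Ptprc, Tal1 and Gata2, all 6 reached 1 FPKM. Within each replicate 3 of them were higher in CD34-positive cells (Cd34, Ly6a and Ptprc) and 2 lower (Tal1 and Gata2). Among all genes tested, 29% were higher and 25% lower in this way. None of 4 B cell markers did. Of 4 T cell markers only Lck did, at 2.13 FPKM at most, and Cd3e and Cd8a were at 0. Of 4 hepatocyte markers Alb was at 0 in every library, Afp and Apoa1 stayed below 1 FPKM, and Trf, the transferrin gene, stood at 149 to 197 FPKM in CD34-positive and 35.1 to 164 FPKM in CD34-negative libraries. Of 4 stroma and endothelium markers Col1a1 and Cdh5 stayed below 1 FPKM. Pdgfrb, a growth factor receptor gene, stood at 38.9 to 62.9 FPKM in CD34-positive and 16.6 to 53.3 FPKM in CD34-negative libraries, and Pecam1, an adhesion gene of endothelium and blood cells, at 58.3 to 96.6 and 36.4 to 80.7 FPKM.

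The values of the members Hoxa5, Hoxa7, Hoxa9 and Hoxa10, at or near 0, were shared by the whole Hox family. Of 39 Hox genes in the table, 34 were at 0 in all 7 libraries and none reached 1 FPKM in any. Only 8 of 273 Hox values were above 0. They belonged to Hoxa7, Hoxb3, Hoxb4, Hoxd4 and Hoxd8, and the highest was 0.0941 FPKM, for Hoxb4 in CD34-negative replicate 1. Among all genes, 34.4% of symbols listed once were at 0 in every library. A listed 0 can be a failed estimate, since Rps29, a ribosomal protein gene that every cell uses, was listed at 0 in CD34-positive replicate 3. No fold or test can therefore be given for the 4 Hoxa members.

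Several partners of Hox proteins were expressed, and their values overlapped between the groups. The TALE genes Meis2 and Pknox2 were at 0, and Meis3 did not exceed 0.0464 FPKM. Pbx2 had a mean of 24.8 ± 2.94 FPKM with CD34 on the surface and 23.3 ± 4.24 FPKM without it (SD, n = 3 and 4). Its difference on the log2(FPKM + 1) scale was 0.09, with a 95% interval of -0.55 to 0.74. Pknox1, a relative of Meis proteins that also binds Pbx, averaged 8.40 and 7.95 FPKM, with an interval of -0.58 to 0.71. For Pbx3 the CD34-positive mean was 4.97 FPKM and the CD34-negative mean 4.15 FPKM.

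Of 45 further Hox genes and TALE partners, 7 were tested and 0 passed in limma in either direction. The background for that count is 0% of 9259 genes in each direction. Pbx4 was lower in CD34-positive cells within all 3 replicates, at 2.56, 1.70 and 1.94 FPKM in CD34-positive libraries and 3.18, 2.52, 3.13 and 3.61 FPKM in CD34-negative ones. The repressor gene Tgif1 was higher within all 3, at 35.0, 17.9 and 37.9 FPKM in CD34-positive cells and 33.1, 11.0, 15.9 and 21.2 FPKM in CD34-negative cells. Neither passed (adjusted p = 0.9999 for both in limma).

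**Figure D1:**
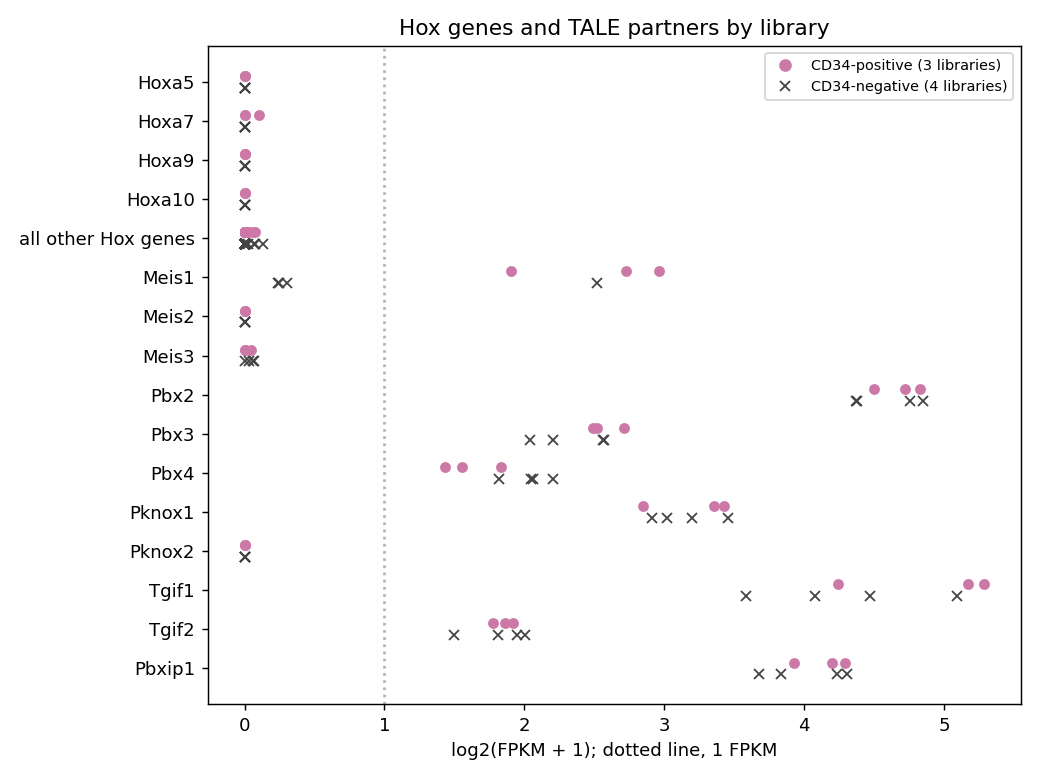
Level of Hox genes and TALE partners on the log2(FPKM + 1) axis, with 1 point per library, circles for the 3 CD34-positive and crosses for the 4 CD34-negative libraries. The Hox rows lie at or near 0, Meis1 separates CD34-negative replicate 1 (4.72 FPKM) from the 3 other CD34-negative libraries (0.179 to 0.234 FPKM), and the Pbx2 and Pknox1 points of both groups overlap.

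Meis1, the Hox partner of the TALE class, was the lowest of the expressed members. It stood at 6.80, 2.75 and 5.63 FPKM in CD34-positive replicates 1 to 3 against 4.72, 0.189, 0.179 and 0.234 FPKM in the CD34-negative group in its order of replicates. CD34-negative replicate 1 lay within the CD34-positive range, and the 3 other CD34-negative libraries lay far below it. The CD34-positive to CD34-negative ratio within replicates 1, 2 and 3 was 1.44, 14.6 and 27.2, where for the last the mean of the 2 CD34-negative libraries was used. The fitted difference was 1.71 on the log2(FPKM + 1) scale (SE 0.59, adjusted p = 0.698 in limma), and 1.05 in the libraries numbered 2 and 3 alone.

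Hlf, the stem cell leucine zipper factor, had the largest fitted difference among the members tested. Its values were 9.08, 4.66 and 9.12 FPKM in CD34-positive libraries and 5.42, 0.263, 0.616 and 0.488 FPKM in CD34-negative ones. Here too only CD34-negative replicate 1 reached the CD34-positive range. The ratio within replicates was 1.67, 17.7 and 16.5, and the fitted log2 difference was 1.99 (SE 0.57, adjusted p = 0.647 in limma).

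Sox4, the HMG-box factor, was the most abundant member in CD34-positive cells. It stood at 210, 109 and 119 FPKM in CD34-positive libraries and at 145, 21.2, 35.1 and 45.9 FPKM in CD34-negative ones. Again the overlap came from CD34-negative replicate 1 alone. The ratio was 1.45, 5.12 and 2.93 in replicates 1, 2 and 3, and the fitted log2 difference was 1.54 (SE 0.64, adjusted p = 0.853 in limma).

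Zfp521, the zinc finger cofactor, stood at 19.4, 6.68 and 16.3 FPKM in CD34-positive libraries and at 13.6, 1.02, 9.30 and 3.82 FPKM in CD34-negative ones. The groups overlapped more widely, because CD34-positive replicate 2 was below CD34-negative replicates 1 and 3. Within replicates the ratio was 1.43, 6.52 and 2.48. Its fitted log2 difference was 1.17 (SE 0.68, adjusted p = 0.9999 in limma).

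Hhex, the homeodomain factor, varied least between CD34 states. It stood at 103, 49.6 and 133 FPKM in CD34-positive libraries and at 86.4, 32.4, 56.6 and 73.1 FPKM in CD34-negative ones. CD34-positive replicate 2 was below 3 of the 4 CD34-negative libraries, so the groups overlapped. The ratio within replicates was 1.20, 1.53 and 2.06, and the fitted log2 difference was 0.59 (SE 0.49, adjusted p = 0.9999 in limma). In these bulk libraries, fewer cells with a member's RNA and less of that RNA per cell cannot be told apart.

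**Figure D2:**
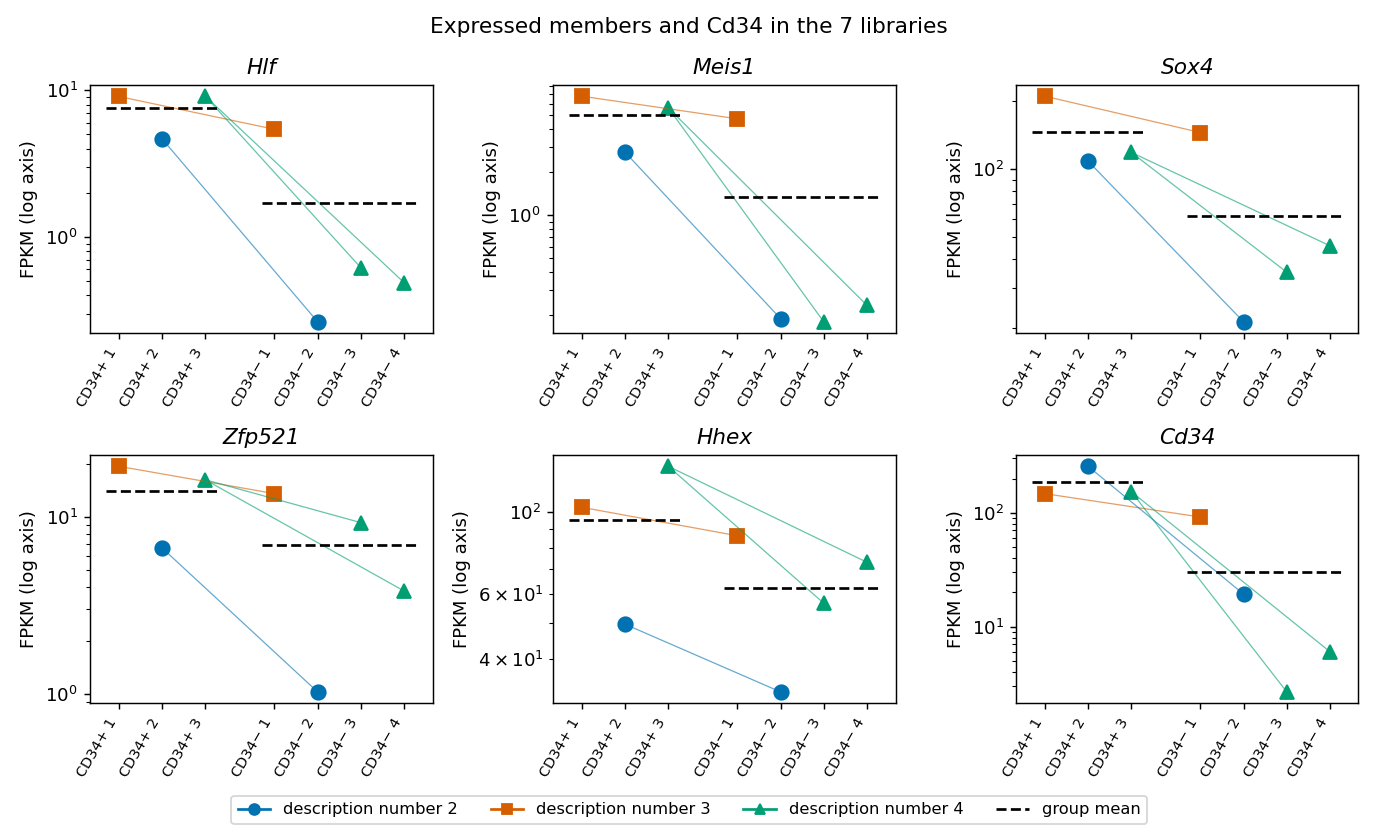
FPKM on log axes of the 5 expressed members and of Cd34 in each library, CD34-positive libraries on the left of each panel, with lines joining libraries of the same description number and dashed lines at the group means. Within each number the CD34-positive point is the higher, and CD34-negative replicate 1 is the highest CD34-negative library for all 6 genes.

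FPKM are per length, so levels can be set side by side between genes. In CD34-positive cells the order was Sox4 (145.8 ± 55.9 FPKM), Hhex (95.4 ± 42.5), Zfp521 (14.1 ± 6.62), Hlf (7.62 ± 2.57) and Meis1 (5.06 ± 2.08; SD, n = 3 each). Neighbours in this order overlapped in their ranges, except that all Hhex values lay above all Zfp521 values. Within each CD34-positive library, though, Zfp521 was above Hlf and Hlf above Meis1. Sox4 was above Hhex in replicates 1 and 2 and below it in replicate 3. In CD34-negative cells Hhex (62.1 ± 23.2 FPKM) and Sox4 (61.9 ± 56.5) had nearly the same mean, followed by Zfp521 (6.93 ± 5.61), Hlf (1.70 ± 2.49) and Meis1 (1.33 ± 2.26; SD, n = 4 each). The SDs of Hlf and Meis1 there exceeded their means, and replicate 1 supplied most of each mean.

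Of the 9 members, 5 passed the filter of 1 FPKM in at least 3 libraries, and Meis1 and Hlf did so through the 3 CD34-positive libraries and CD34-negative replicate 1. None passed an adjusted p of 0.05 in limma, and neither did any of the 9259 genes tested (0% in each direction). Cd34, the gene of the sorted marker, did not pass either (adjusted p = 0.647 in limma). At an unadjusted p under 0.05, 3 members were higher (Meis1, Hlf and Sox4) and 0 lower, where 3.38% of all genes were higher and 2.27% lower. When the fit also held the description numbers, the replicate block, all 5 members were higher at that level. Of all genes, 12.8% were higher and 9.14% lower in this way. After adjustment, 0 members and 0% of all genes passed in this fit. All 5 were higher within each of the 3 replicates, as were 29% of all genes tested. No member's groups were fully apart, which 2.67% of all genes showed in this direction. Without CD34-negative replicate 1, the groups were apart for Meis1, Hlf and Sox4. Of all genes, 9.42% were then apart in this direction and 3.72% in the other. The overlap of these 3 members came from that library alone, so leaving it out fixed this outcome. Separation was counted with no other library left out, and nothing about the members is read from it. In limma without that library 0 members passed, and 0.0756% of all genes passed as higher and 0.0324% as lower.

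A fit with the replicate block that left out both replicate 1 libraries, chosen once the values were known, called Meis1, Hlf and Sox4 as higher, beside 2.52% of all genes as higher and 0.875% as lower. It left out the pair with the smallest log2 difference for each of the 5 members. In the 5 libraries kept, Meis1 and Hlf reached 1 FPKM in the CD34-positive ones alone. Nothing about the members is therefore read from these calls. Without the block but also without these libraries no member was called (adjusted p = 0.277 for Hlf and Meis1 in limma).

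**Figure D3:**
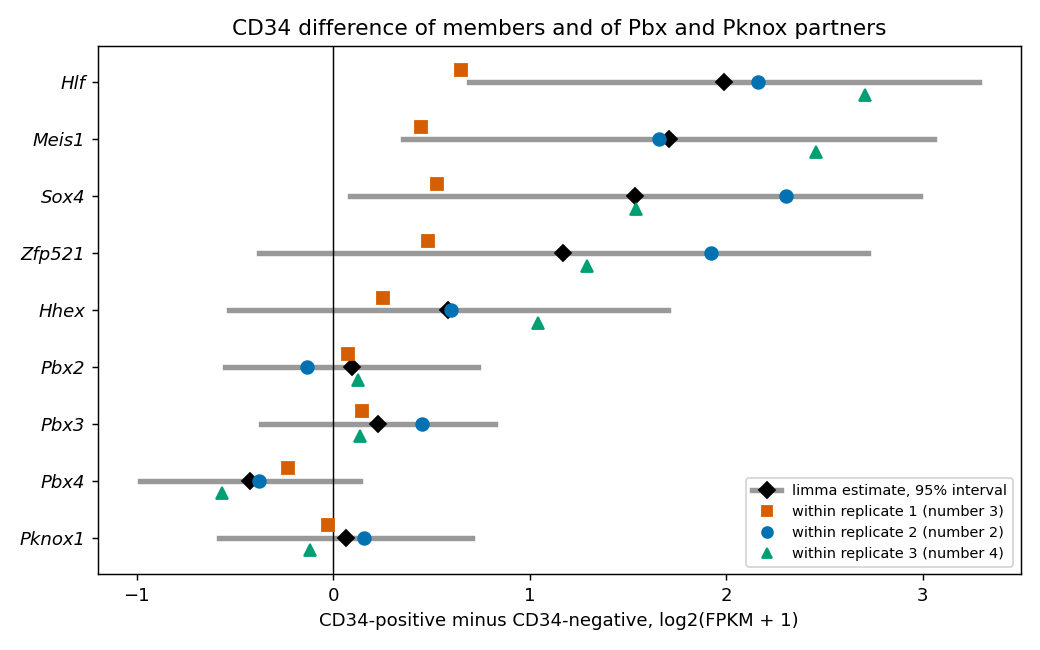
CD34-positive minus CD34-negative difference on the log2(FPKM + 1) axis for the 5 members tested and for 4 TALE partners. Diamonds and bars are limma estimates with 95% intervals, and coloured points are differences within replicates. All 15 points of the members lie above 0, the smallest in replicate 1 (0.25 for Hhex to 0.65 for Hlf), while those of Pbx2 and Pknox1 lie on both sides of 0.

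Among the CD34-negative libraries, replicate 1 stood far above the 3 others for Meis1 and Hlf. For Zfp521 and Hhex replicate 2, the lowest, lay farther from its neighbour, by 0.439 and 0.566 of the group's range on the log2(FPKM + 1) scale, against 0.176 and 0.171 for replicate 1 at the high end. Replicate 1 was the highest CD34-negative library for all 5 and below CD34-positive replicate 1 for all 5, a position that 18.4% of all genes tested held. Its ratio to CD34-negative replicate 2 was 25.0 for Meis1, 20.6 for Hlf, 13.3 for Zfp521, 6.85 for Sox4 and 2.66 for Hhex. Cd34 had the same position, at 91.8 FPKM. Markers of more mature cells differed among the libraries too, but not in 1 common order. Only the neutrophil and monocyte sum was highest of the CD34-negative libraries in replicate 1. The erythroid, mast cell and megakaryocyte sums there were 273, 2548 and 554 FPKM, inside the range of their group. The 6 neutrophil and monocyte markers summed to 1236 to 2355 FPKM in CD34-positive libraries and 124 to 1309 FPKM in CD34-negative ones, with the 1309 in CD34-negative replicate 1. Of these 6 markers, 3 were tested and all 3 were higher within each replicate. The 6 erythroid markers summed to 57.0 to 649 FPKM in CD34-positive libraries and 143 to 2058 FPKM in CD34-negative ones, and 5 were lower within each replicate. The 6 mast cell markers summed to 2124 to 3203 and 1646 to 10410 FPKM, and 4 of 5 tested were lower within each replicate. The other, Cpa3, was higher within each replicate and made up most of the CD34-positive sums, at 1936 to 3044 FPKM. Trf, Pdgfrb and Pecam1 were each higher within all 3 replicates and, like the members, highest of the CD34-negative libraries in replicate 1. The 4 megakaryocyte markers summed to 218 to 749.5 FPKM in CD34-positive libraries and 229 to 890.1 FPKM in CD34-negative ones, with 2 higher and 1 lower within each replicate. The part of these in the members' values was not tested.

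The profile of each member over the 7 libraries was set against every tested gene. The measure was the root mean square difference between the log2(FPKM + 1) values of 2 genes, each centred on its own mean. By this measure Meis1 and Hlf were among each other's nearest genes, at 0.187, where the median distance over all tested genes was 1.18 from Meis1 and 1.26 from Hlf. For Meis1 the nearest was Acox2, a peroxisomal oxidase gene (0.187), then Hlf and then Pag1, a membrane adaptor (0.249). For Hlf the nearest after Meis1 were Pag1 (0.199) and Tspan2, a tetraspanin (0.208). Acox2 stood at 11.3, 3.90 and 7.12 FPKM in CD34-positive libraries and at 6.45, 0.347, 0.193 and 0.410 FPKM in CD34-negative ones, which again set replicate 1 apart from the other CD34-negative libraries.

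Among the other members Sox4 lay closest to both, at 0.357 from Meis1 and 0.398 from Hlf. Its own nearest genes were Snn (0.175), the kinase gene Pak1 (0.227) and Frmd6 (0.258). Zfp521 had as nearest Cpne3 (0.225), the actin-bundling gene Lcp1 (0.249) and Fli1, an ETS factor of blood progenitors (0.252). In CD34-negative replicate 3, Zfp521 (9.30 FPKM) and Fli1 (44.4 FPKM) were well above CD34-negative replicate 2 (1.02 and 4.63 FPKM), unlike Meis1. The nearest genes to Hhex were the zinc finger genes Zfp810 (0.068) and Zfp1 (0.147) with Qser1 (0.141). The distance of Hhex from other members was 0.646 to 0.881, and its median distance from all tested genes was 0.767. All these profiles share the same 7 libraries and their 2 kinds, so likeness is a description.

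**Figure D4:**
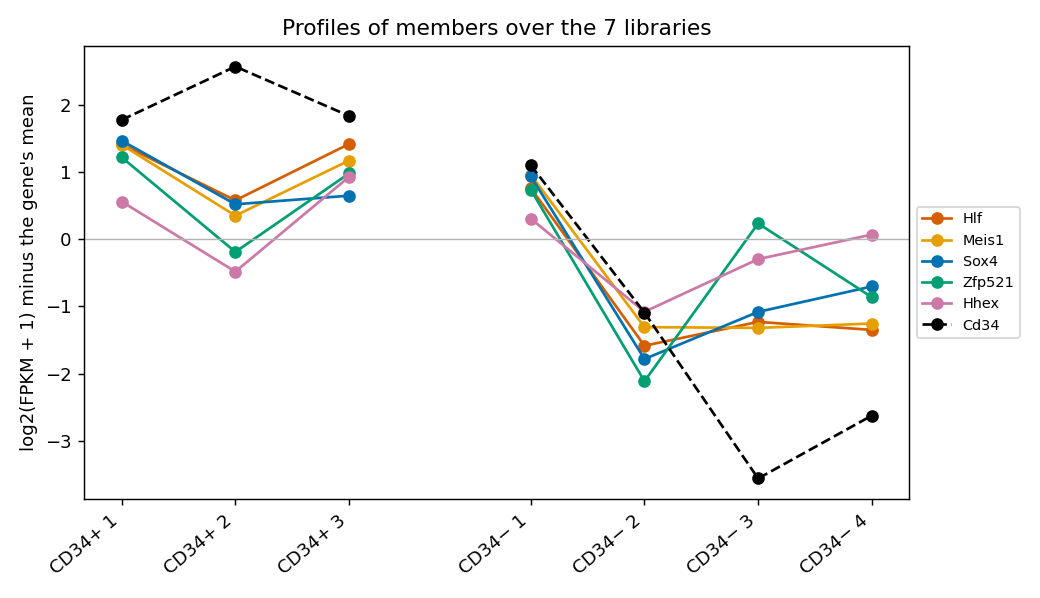
log2(FPKM + 1) of the 5 members tested and of Cd34 (dashed), each minus its own mean over the 7 libraries, with CD34-positive libraries on the left. Meis1 and Hlf run close together, Zfp521 and Hhex depart from them in CD34-negative replicate 3, and all 6 lines are above their means in CD34-negative replicate 1.

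The description number, 4 against 2 and 3, separated many genes but no member by the test. In the fit that also held the CD34 state, 549 genes (5.93%) were higher and 2842 (30.7%) lower in libraries numbered 4, and of the members 0 passed. Under median-ratio scaling the split was 1439 higher and 1455 lower, and under quantile normalization it was 1526 and 1475. The members' differences ranged from -0.55 for Meis1 to 0.52 for Hhex on the log2 scale (adjusted p = 0.486 and 0.343 in limma). Hhex passed under 1 of 12 alternatives, quantile normalization (1.52, adjusted p = 0.0306 in limma). Whether the CD34 difference was unequal between the 2 kinds of library was tested as an interaction. It was 1.41 for Meis1 (95% interval -1.43 to 4.24) and 1.30 for Hlf (-1.54 to 4.14), and 0.09 to 0.62 for the others. Without CD34-negative replicate 1 it was 0.27 for Meis1 and 0.13 for Hlf, and without CD34-negative replicate 2 it was 2.54 and 2.47. No gene of 9259 passed (0%, or 0.184% at an unadjusted p under 0.05), with an adjusted p of 1 in limma for each member.

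Close relatives of Hlf, Sox4 and Zfp521 were set beside them. Of 6 such genes 3 were tested and 0 passed, and Sox11, Sox12 and Zfp423 were at 0 in all libraries. The Hlf relative Tef had a mean of 16.6 ± 3.23 FPKM in the CD34-positive group and 14.9 ± 2.70 FPKM in the CD34-negative group (SD, n = 3 and 4). Dbp averaged 3.27 and 4.37 FPKM and was lower within all 3 replicates. Nfil3, a repressor that binds the same sites, averaged 14.2 ± 7.39 and 9.76 ± 7.85 FPKM and was higher within all 3. The median log2 difference of the 3 was 0.15, against 0.09 over all genes tested.

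Genes for activators of Hox genes were expressed, beside Hox genes at or near 0. Of 15 genes of the MLL complex and other activators, 12 were tested and 0 passed in either direction, Cdx4 was at 0, and Kmt2a and Kat6a were not analysed here. The median log2 difference was 0.01, with 3 genes higher and 3 lower within all 3 replicates, where 29% of all genes were higher and 25% lower. Mllt3, a partner of MLL and Dot1l, stood at 17.5, 7.60 and 13.3 FPKM in CD34-positive libraries and at 20.3, 18.8, 18.6 and 34.5 FPKM in CD34-negative ones. Its groups did not overlap, as in 3.01% of all genes in this direction, and it did not pass (-0.82, SE 0.37, adjusted p = 0.906 in limma). Dot1l, a histone methyltransferase, averaged 13.6 and 15.5 FPKM. Aff4, an elongation factor subunit, averaged 14.8 ± 8.73 and 12.4 ± 11.0 FPKM.

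Of 12 genes reported as targets of HoxA9, Meis1 or Hlf, 9 were tested, with a median log2 difference of 0.26, and 0 passed. Of these, 4 were higher within all 3 replicates (Myb, Pim1, Cdk6 and Erg) and 3 lower (Igf1r, Id2 and Lmo2), beside the 29% and 25% of all genes. Pim1, a survival kinase gene, stood at 30.5, 14.3 and 37.8 FPKM in CD34-positive libraries and at 26.8, 8.87, 8.68 and 7.24 FPKM in CD34-negative ones. CD34-negative replicate 1 was again the nearest to the CD34-positive libraries. Id2, an inhibitor of E proteins, had the opposite order, at 17.0, 32.9 and 30.5 FPKM in CD34-positive libraries and 45.8, 77.3, 500.1 and 87.9 FPKM in CD34-negative ones. Its groups did not overlap, as in 3.01% of all genes in this direction, and it did not pass (-2.08, SE 0.76, adjusted p = 0.725 in limma). The receptor gene Igf1r averaged 4.07 and 6.41 FPKM. Flt3, a cytokine receptor gene that Hoxa9 and Meis1 activate in mouse cells, stayed below 1 FPKM throughout, at 0.377 to 0.470 in CD34-positive and 0.0184 to 0.539 in CD34-negative libraries.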

How the data were processed

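RNA-seq of 7 libraries was analysed. The deposited values are FPKM made by the authors, 1 per row and library. The submitters' processing notes name the tools TopHat2, TopHat and Cuffdiff, and both mm9 and mm10, without saying which library each belongs to. Annotation and strand use were not given in the sources used here. Values of overlapping genes are therefore uncertain. The number of fragments is unknown, so no count model or counting interval was used. Rows of 105 repeated symbols (322 rows) were left out.

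The tests covered the 9259 genes that reached 1 FPKM in 3 or more libraries, as log2(FPKM + 1), which understates changes of low genes. limma 3.58.1 in R 4.3.3 was used with a mean-variance trend, two-sided, Benjamini-Hochberg adjusted over all tested genes, threshold 0.05. Differences are the CD34-positive value minus the CD34-negative one. The members, lists and tests were chosen with earlier results of these data known. The named genes are the members, the 3 nearest in profile to each, and the 3 of each list with the smallest p. The others, with Cd34, were named after their values were seen. 1 gene of the lists is not reported here. The fits were also run on simulated data whose spread left out the description number. These libraries differ by that number, so the simulation does not show how well the fits work here.

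Libraries were paired by description number. Deviations from group means correlated at 0.70, 0.92, 0.82 and 0.85 within numbers and at -0.86 to 0.37 across numbers. Such deviations sum to 0 within a group, so part of this contrast is built in. The main fit did not hold these pairs. Alternatives were the replicate block, another pseudocount, other filters and scalings, each library left out, and 1 mean for CD34-negative replicates 3 and 4. Fits without both replicate 1 libraries and fits of libraries numbered 2 and 3 alone were added after seeing the data. The labels name no separate cultures, so a p-value speaks of the spread among these libraries, which may be technical.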

Additional observations from a re-analysis of the deposited data

Results flagged for a closer look

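Among the 4 CD34-negative libraries, replicate 1 stood far above the 3 others for Meis1 and for Hlf on the log2(FPKM + 1) scale. The gap to the next library was 0.971 of the group's range for Meis1 and 0.849 for Hlf, both above Dixon's 95% limit for 4 values. For both genes the 3 others lay below 1 FPKM (0.263 to 0.616 for Hlf), where the added 1 narrows their spread. Whether the flags hold with another pseudocount was not tested. Chance flags about 1 in 20 groups. Sox4 (0.603), Zfp521 (0.176) and Hhex (0.171) stayed below that limit. Cd34 was also highest in that library among the CD34-negative ones, at 91.8 FPKM against 2.67 to 19.3 FPKM. The part of the Cd34 level in the members' values was not tested.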

How the results depend on the processing

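In the CD34 comparison the 5 members tested stayed higher in CD34-positive cells under all 17 alternatives (16 for Meis1, which a filter of 5 FPKM removed), and none of these but the replicate block without both replicate 1 libraries called a member (3). That fit called 233 genes higher and 81 lower, against 0 and 0. Leaving out 1 library gave 0 to 7 genes higher and 0 to 3 lower, the 7 and 3 without CD34-negative replicate 1, where Hlf and Meis1 had an adjusted p of 0.0509 and 0.0519 in limma. With the replicate block the members' adjusted p was 0.0931 to 0.121, and it changed no call. The log2 difference without 1 library ranged over 1.74 to 2.52 for Hlf, 1.49 to 2.27 for Meis1, 1.16 to 2.07 for Sox4, 0.63 to 1.60 for Zfp521 and 0.29 to 0.99 for Hhex. In libraries numbered 2 and 3 alone, chosen after seeing the data, it was 1.05 for Meis1, 1.41 for Hlf, 1.42 for Sox4, 1.20 for Zfp521 and 0.43 for Hhex. With pseudocount 0.1 it was 2.95 for Hlf and 3.01 for Meis1. Median-ratio scaling moved the median of all genes by 0.10 between CD34 states and left the members at 0.48 to 1.94.

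Between libraries numbered 4 and the others, leaving out 1 library gave 123 to 932 genes higher and 1020 to 2820 lower. Quantile normalization gave 1526 and 1475 and called 1 member, and median-ratio scaling gave 1439 and 1455. Sox4 turned to 0.41 with quantile normalization. Leaving out 1 library gave -1.11 to 0.16 for Meis1, -0.88 to 0.36 for Hlf and -1.09 to 0.27 for Sox4, above 0 without CD34-negative replicate 1. It gave -0.29 to 1.13 for Zfp521, below 0 without CD34-negative replicate 2. In the interaction, 3 genes were called higher without a filter. Leaving out 1 library moved it between 0.27 and 2.54 for Meis1, 0.13 and 2.47 for Hlf, -0.077 and 1.31 for Hhex, -1.24 and 1.48 for Sox4, and -1.34 and 1.51 for Zfp521, with the lowest value of each without CD34-negative replicate 1. With pseudocount 0.1 it was -0.12 for Zfp521. The causes were not tested. The interaction without CD34-positive replicate 3 could not be fitted.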
